A study of Mus musculus with 8 samples.

Results

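Nonsense-mediated decay is the surveillance pathway that removes mRNAs whose reading frame ends too early. The 9 genes described here encode its core proteins: Upf1, Upf2, Upf3a, Upf3b, Smg1, Smg5, Smg6, Smg8 and Smg9. They were taken by name from the 55385 genes of the count table, and all 9 were found and had enough reads to be tested among 17445 genes. RNA-Seq was performed on R1 mouse embryonic stem cells (mESCs) of WT genotype after knockdown (KD) of Eftud2, a GTPase of the U5 snRNP that is required for pre-mRNA splicing. Cells received lentivirus carrying Eftud2 shRNA1 (n = 3), Eftud2 shRNA2 (n = 3) or a non-targeting hairpin, nt-shRNA (n = 2). In every group, controls included, cells were infected for 2 days, selected with puromycin for 3 days and grown in N2B27 medium with 2i and Lif. As the study describes them, shRNA1 is directed at the untranslated 3′ end of Eftud2 mRNA and shRNA2 at its coding sequence. The comparisons ask how the mRNAs of the decay machinery stand when splicing is perturbed by either hairpin, and whether the hairpins differ.

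In the pathway, the helicase Upf1 binds mRNA and is joined at a terminating ribosome by Upf2, which is linked by Upf3a or Upf3b to the exon junction complex left on the mRNA by splicing. The kinase Smg1, held in check by Smg8 and Smg9, then phosphorylates Upf1. Phosphorylated Upf1 recruits Smg6, an endonuclease that cuts the mRNA, and Smg5, which helps to bring in enzymes that shorten and decap it. The mRNAs of several of these factors are themselves substrates of the pathway in mammalian cells, among them those of Upf1, Upf2, Upf3b, Smg1, Smg5 and Smg6. Counts were taken per gene, so productive and prematurely terminated transcripts of a factor are not told apart here.

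Libraries held 19569525 to 29871048 counts assigned to genes, and the nt-shRNA libraries were the deepest. Eftud2 itself was at 262.3 and 255.7 CPM (counts scaled to library size by TMM normalization) in the nt-shRNA libraries, 225.3 to 231.9 CPM with shRNA1 and 198.2 to 234.7 CPM with shRNA2. Its log2 fold change was -0.18 with shRNA1 (edgeR quasi-likelihood test, adjusted p = 0.0514) and -0.29 with shRNA2 (edgeR, adjusted p = 0.00122), and shRNA2 was not separated from shRNA1 (difference -0.11, edgeR, adjusted p = 0.164). By qPCR the study reports a larger loss of Eftud2 mRNA than these counts show, with shRNA2 the more potent hairpin. It also reports less EFTUD2 protein on western blots with either hairpin. The 8 markers of embryonic stem cells fixed for the check of the label were all detected and summed to 6580 to 6970 CPM over all libraries. That sum covers members that moved both ways, with 3 called higher and 2 lower with shRNA1 and 5 higher and 2 lower with shRNA2, from Klf4 (log2 fold change 1.32) to Dppa5a (-0.96). Of all tested genes, 13.8% were called higher and 17.1% lower with shRNA1, and 27.2% and 28.7% with shRNA2. Markers of the two-cell-like state, which a small share of mESCs enters, summed to 8.88 to 9.82 CPM in nt-shRNA, 41.9 to 60.1 CPM with shRNA1 and 33.6 to 43.9 CPM with shRNA2. Of the 7 two-cell-like markers 6 were tested, of which 6 were called higher with shRNA1 and 5 with shRNA2, beside those 13.8% and 27.2%. Primitive endoderm markers summed to 23.1 to 23.6, 21.7 to 25.8 and 17.3 to 19.3 CPM in the same order of groups, and fibroblast markers to 4.56 to 4.95, 6.49 to 7.34 and 6.23 to 7.48 CPM. None of these markers was at 0 in all libraries, and the part of these cell states in the values below was not tested. In bulk RNA, fewer cells of a type and less RNA per cell cannot be told apart.

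All 9 factors were well expressed in mESCs. Per kilobase of exon and within each library (TPM), Upf1 was the most abundant member, with a median of 253 TPM (234 to 281 over the 8 libraries), which placed it above 96.9% of the tested genes. Smg5 followed at 104 TPM (80.6 to 156) and Upf2 at 70 TPM (63.1 to 76.9), and the ranges of these 3 did not overlap. Behind them came Smg8 at a median of 50.2 TPM, Smg1 at 45.9, Upf3b at 44.3, Upf3a at 42.7 and Smg6 at 38.5, each with a library range that overlapped that of its neighbour. Read within each library, Smg8 was above Upf3a and Smg6 in 8 of 8 libraries and above Smg1 and Upf3b in 7 of 8. Upf3b was above Smg6 in 8 of 8 and Smg1 above Smg6 in 7 of 8. Smg1 was above Upf3b in 3 of 8 and above Upf3a in 5 of 8. Upf3b was above Upf3a in 6 of 8 and Upf3a above Smg6 in 6 of 8. The places of Smg1, Upf3b, Upf3a and Smg6 were therefore not resolved. Smg9 was the least abundant, at 23.7 TPM (22.1 to 30.6), and its range lay below that of Smg6. Upf1, Smg5 and Upf2 held the first 3 places and Smg9 the last in each group's means, whereas Upf3a stood 8th in nt-shRNA, 7th with shRNA1 and 5th with shRNA2. TPM gives the level of a gene and its place among the others, with ranges over all libraries, and ratios of 2 genes of the same library, in which the library's scaling cancels. It was not used for a gene's difference between groups. The members' summed TPM ran from 581 to 601 in nt-shRNA and from 670 to 763 with the Eftud2 hairpins, while their summed CPM after TMM normalization was 1239 and 1340 in nt-shRNA and 1283 to 1461 with the hairpins. Differences of a gene between groups are therefore given on the TMM-normalized CPM scale. The depth behind each value was 511 to 10844 counts per gene and library, with Smg9 lowest.

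**Figure D1:**
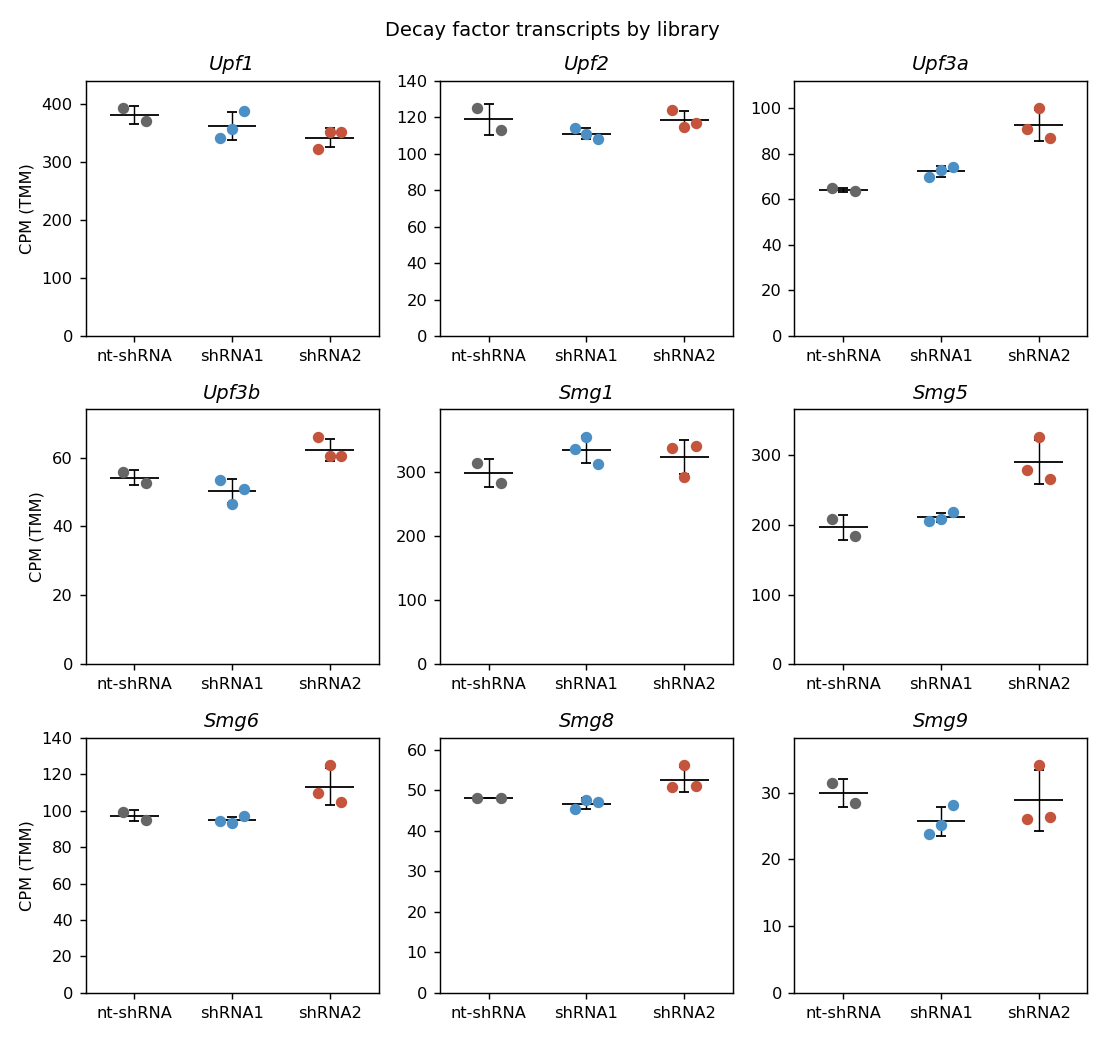
TMM-normalized CPM (linear axes that start at 0) of each decay factor in the 8 libraries, grouped by hairpin; horizontal lines are group means and bars are ± SD (n = 2, 3 and 3). Upf3a and Smg5 in the shRNA2 libraries (86.8 to 100 and 265 to 326 CPM) lie above all other libraries, whereas Upf2 and Smg9 overlap between shRNA2 and nt-shRNA.

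With shRNA1, none of the 9 factors passed the test against nt-shRNA. For comparison, 30.9% of all tested genes were called in this comparison, 13.8% higher and 17.1% lower. DESeq2 called 0 of the 9 as well, and 2 members had an unadjusted p under 0.05, both with higher values. The median log2 fold change of the members was -0.04, beside -0.01 over all tested genes. The shRNA1 and nt-shRNA libraries did not overlap for Upf3a, which was higher, and for Smg8 and Smg9, which were lower, beside 26.6% of all genes higher and 30.2% lower without overlap, 56.8% in all.

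With shRNA2, 4 factors rose against nt-shRNA (Smg5, Upf3a, Smg6 and Upf3b) and 1 fell (Upf1). These 5 of 9 are 55.6% of the members, and 55.9% of all tested genes were called in the same comparison, so the share of members called was that of the background. By direction, 44.4% of the members were called higher, beside 27.2% of all genes, and the background for lower calls was 28.7%. The members' median log2 fold change was 0.13, beside 0.00 over all genes. Groups did not overlap for 6 members, with Upf3a, Upf3b, Smg5, Smg6 and Smg8 higher and Upf1 lower, beside 35.4% of all genes higher and 36% lower without overlap, 71.4% in all. The firm changes were those of Smg5 and Upf3a, by 1.48-fold and 1.44-fold, which passed the test in 16 of 16 alternative fits (8 other settings and 8 fits that each left out 1 library). The calls on Smg6, Upf3b and Upf1 depended on the setting or on single libraries, as given with each gene below.

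Compared directly, shRNA2 gave higher levels than shRNA1 for 5 factors (Smg5, Upf3a, Upf3b, Smg6 and Smg8) and lower levels for 0. Of all tested genes, 16.9% were called higher and 18.7% lower in this comparison, 35.6% in all. The median log2 difference of the members was 0.17, beside 0.00 over all genes. Groups did not overlap for 6 members, the same 5 and Upf2, all higher with shRNA2, beside 23.6% of all genes higher and 24.1% lower without overlap, 47.8% in all. Smg5, Upf3a, Upf3b and Smg6 passed in 16 of 16 alternative fits, and Smg8 in 5 of 16. The comparisons against nt-shRNA share the same 2 control libraries, and the direct comparison shares the hairpin libraries with both.

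**Figure D2:**
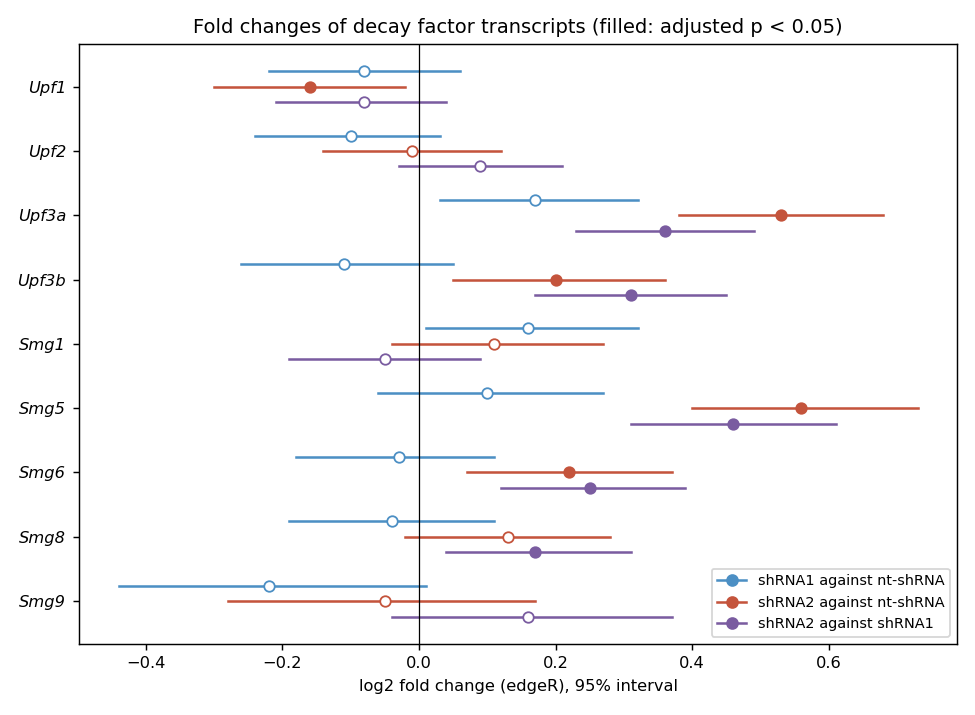
Log2 fold change of each decay factor in the 3 comparisons (edgeR), with 95% confidence intervals as lines; filled points passed the adjusted p threshold of 0.05 over all 17445 tested genes. Smg5 and Upf3a with shRNA2 (0.56 and 0.53) lie farthest from 0, and no shRNA1 point is filled.

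Smg5 and Upf3a had the largest values with shRNA2, and their order was not resolved: Smg5 was at 0.47 and Upf3a at 0.51 without nt-shRNA replicate 2, and both were at 0.47 without shRNA2 replicate 2. In Smg5, levels were 209 and 184 CPM in the nt-shRNA libraries, 205, 209 and 218 CPM with shRNA1, and 279, 326 and 265 CPM with shRNA2. Every shRNA2 library was above every other library, and shRNA1 overlapped nt-shRNA. The log2 fold change against nt-shRNA was 0.56 with shRNA2 (SE 0.0791, 95% interval 0.40 to 0.73, edgeR adjusted p = 7.1e-06) and 0.10 with shRNA1 (interval -0.06 to 0.27, edgeR adjusted p = 0.34). With shRNA1 it was called higher in 2 of 16 alternative fits, with the correction for GC content (0.23, edgeR adjusted p = 0.0215) and with library size alone (0.22, edgeR adjusted p = 0.0299), and it was at 0.20 without nt-shRNA replicate 1 and 0.01 without nt-shRNA replicate 2. Directly, shRNA2 exceeded shRNA1 by 0.46 (SE 0.07, interval 0.31 to 0.61, edgeR adjusted p = 7.3e-05). Across the alternative fits the shRNA2 value against nt-shRNA ran from 0.47 to 0.75.

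Smg6, the endonuclease that works beside Smg5 on Upf1, was at 99.4 and 95.1 CPM in nt-shRNA, 94.6, 93.4 and 96.9 CPM with shRNA1, and 110, 125 and 105 CPM with shRNA2. The shRNA2 libraries were the 3 highest. Against nt-shRNA the log2 fold change was 0.22 with shRNA2 (SE 0.0706, interval 0.07 to 0.37, edgeR adjusted p = 0.0125) and -0.03 with shRNA1 (interval -0.18 to 0.11, edgeR adjusted p = 0.754). The shRNA2 call was lost without shRNA2 replicate 2 (0.15, edgeR adjusted p = 0.0555) and without nt-shRNA replicate 2 (0.19, edgeR adjusted p = 0.121). Against shRNA1 the difference was 0.25 (SE 0.0633, edgeR adjusted p = 0.00435). The Smg5 to Smg6 ratio in TPM, taken within each library, was 2.55 and 2.35 in nt-shRNA, 2.64 to 2.73 with shRNA1 and 3.07 to 3.17 with shRNA2, with no overlap between the 3 groups.

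Upf3a and Upf3b are paralogs that bridge Upf2 and the exon junction complex, Upf3b being the more active in decay. Upf3a was at 64.8 and 63.6 CPM in nt-shRNA, 69.8, 72.9 and 74.3 CPM with shRNA1, and 90.8, 100 and 86.8 CPM with shRNA2. The 3 groups did not overlap, in the order nt-shRNA, shRNA1, shRNA2. Its log2 fold change was 0.53 with shRNA2 (SE 0.0703, interval 0.38 to 0.68, edgeR adjusted p = 3.6e-06), and shRNA2 exceeded shRNA1 by 0.36 (SE 0.0624, interval 0.23 to 0.49, edgeR adjusted p = 2.6e-04). With shRNA1 the value was 0.17 (interval 0.03 to 0.32, edgeR adjusted p = 0.0691), which missed the threshold here and passed it in 5 of 16 alternative fits.

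Upf3b was at 55.7 and 52.7 CPM in nt-shRNA, 53.4, 46.5 and 50.8 CPM with shRNA1, and 66, 60.5 and 60.4 CPM with shRNA2. The shRNA2 libraries stood above the rest, and shRNA1 overlapped nt-shRNA with a lower mean. Directly, shRNA2 exceeded shRNA1 by 0.31 (SE 0.0675, interval 0.17 to 0.45, edgeR adjusted p = 0.00163). Against nt-shRNA the value was 0.20 with shRNA2 (SE 0.0748, interval 0.05 to 0.36, edgeR adjusted p = 0.0275) and -0.11 with shRNA1 (interval -0.26 to 0.05, edgeR adjusted p = 0.295). The shRNA2 call against nt-shRNA was lost in 5 of 16 alternative fits: with no filter on low counts (0.18), with a correction for GC content (0.04), without shRNA2 replicate 1 (0.16) and without nt-shRNA replicate 1 (0.24) or 2 (0.16). With shRNA1 the correction for GC content gave a lower call (-0.23, edgeR adjusted p = 0.0173), and the value ran from -0.15 to -0.06 with 1 library left out. Within libraries the Upf3a to Upf3b ratio in TPM was 0.794 and 0.823 in nt-shRNA, 0.89, 1.07 and 0.997 with shRNA1 and 0.938, 1.13 and 0.979 with shRNA2, so both hairpin groups lay above nt-shRNA and overlapped each other.

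Upf1, the central helicase, was the only member called lower in the reported fit. It was at 392 and 370 CPM in nt-shRNA, 341, 357 and 387 CPM with shRNA1, and 322, 352 and 351 CPM with shRNA2. The shRNA2 libraries lay below both nt-shRNA libraries, by a log2 fold change of -0.16 (SE 0.066, interval -0.30 to -0.02, edgeR adjusted p = 0.0485). This call held in 7 of 16 alternative fits. It was lost with DESeq2 (-0.15, adjusted p = 0.0534), with DESeq2 size factors in edgeR (-0.15), with library size alone (-0.07), with at least 10 counts required in every library (-0.13), and without shRNA1 replicate 2 (-0.16), shRNA2 replicate 1 (-0.11), nt-shRNA replicate 1 (-0.12) or nt-shRNA replicate 2 (-0.20). With a correction for GC content the sign turned, to 0.05 (edgeR, adjusted p = 0.446). With shRNA1 the value was -0.08 (edgeR, adjusted p = 0.401), and it ran from -0.13 to -0.03 with 1 library left out.

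Upf2, the partner that activates Upf1, was at 125 and 113 CPM in nt-shRNA, 114, 111 and 108 CPM with shRNA1, and 124, 115 and 117 CPM with shRNA2. Its groups overlapped in both comparisons with nt-shRNA. The log2 fold change was -0.01 with shRNA2 (interval -0.14 to 0.12, edgeR adjusted p = 0.907) and -0.10 with shRNA1 (interval -0.24 to 0.03, edgeR adjusted p = 0.239). The shRNA1 value was -0.03 without nt-shRNA replicate 1 and -0.18 without nt-shRNA replicate 2. Its direct difference was 0.09 (interval -0.03 to 0.21, edgeR adjusted p = 0.226). With the correction for GC content it was called lower with both hairpins, at -0.22 with shRNA1 (edgeR adjusted p = 0.00561) and -0.16 with shRNA2 (edgeR adjusted p = 0.0237).

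The kinase Smg1 was at 314 and 283 CPM in nt-shRNA, 336, 355 and 313 CPM with shRNA1, and 338, 293 and 340 CPM with shRNA2. Ranges overlapped in all 3 comparisons. The log2 fold change was 0.16 with shRNA1 (interval 0.01 to 0.32, edgeR adjusted p = 0.104), 0.11 with shRNA2 (interval -0.04 to 0.27, edgeR adjusted p = 0.203) and -0.05 for shRNA2 against shRNA1 (interval -0.19 to 0.09, edgeR adjusted p = 0.593). Single libraries decided these values: Smg1 was called higher with shRNA1 without shRNA1 replicate 3 (0.21, edgeR adjusted p = 0.0387) and with shRNA2 without shRNA2 replicate 2 (0.18, edgeR adjusted p = 0.0351). Without nt-shRNA replicate 2 the values were 0.09 and 0.04, and without nt-shRNA replicate 1 they were 0.24 and 0.19, with no call. Library size alone also called it with both hairpins (0.28 and 0.20).

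Smg8, which restrains the kinase, was at 48.1 and 48.2 CPM in nt-shRNA, 45.3, 47.7 and 47.2 CPM with shRNA1, and 50.8, 56.2 and 51 CPM with shRNA2. The shRNA2 libraries were above the others by small margins. The log2 fold change was 0.13 with shRNA2 (interval -0.02 to 0.28, edgeR adjusted p = 0.127) and -0.04 with shRNA1 (edgeR adjusted p = 0.682). With shRNA2 it was called higher with library size alone (0.22, edgeR adjusted p = 0.0137) and was at 0.08 without shRNA2 replicate 2. The direct difference of 0.17 (SE 0.0644, edgeR adjusted p = 0.0418) was near the threshold. It was lost in 11 of 16 alternative fits: DESeq2 (adjusted p = 0.0535), library size alone, no filter, only the 2 groups compared, and without any one of shRNA1 replicates 1, 2 or 3, shRNA2 replicate 1 or 2, or nt-shRNA replicate 1 or 2 (0.13 to 0.20).

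Smg9, the partner of Smg8, was at 31.4 and 28.5 CPM in nt-shRNA, 23.8, 25.2 and 28.1 CPM with shRNA1, and 26.1, 34.1 and 26.3 CPM with shRNA2. Its shRNA1 libraries were below nt-shRNA, with a log2 fold change of -0.22 (SE 0.108, interval -0.44 to 0.01, edgeR adjusted p = 0.137) that did not pass. That value was -0.14 without nt-shRNA replicate 1, -0.10 with library size alone and -0.06 with the correction for GC content. With shRNA2 the spread covered nt-shRNA (-0.05, interval -0.28 to 0.17, edgeR adjusted p = 0.689). The direct difference was 0.16 (interval -0.04 to 0.37, edgeR adjusted p = 0.212), and with the correction for GC content it was called at 0.22 (edgeR adjusted p = 0.0458). Without shRNA2 replicate 2 the direct difference was 0.02. Replicate 2 of shRNA2 was the highest shRNA2 library for Upf1, Upf3a, Smg5, Smg6, Smg8 and Smg9, and the lowest for Smg1 and Upf2.

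**Figure D3:**
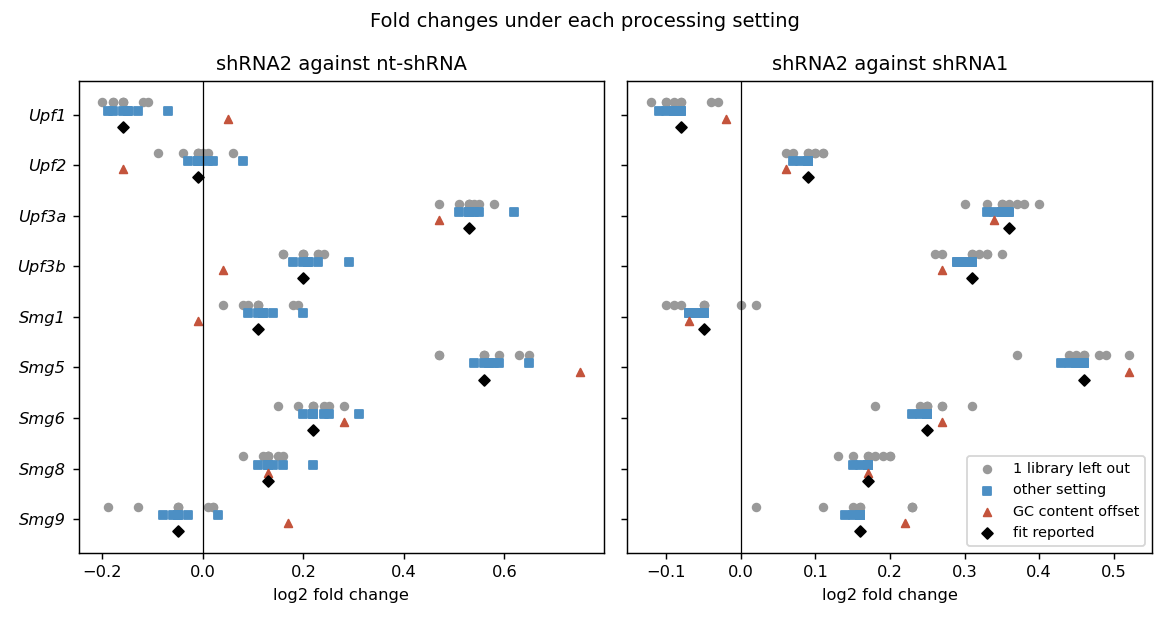
Log2 fold change of each decay factor with shRNA2 against nt-shRNA (left) and against shRNA1 (right) in the fit reported (diamonds), with 1 library left out (circles), with a GC content correction (triangles) and under the other settings (squares). Smg5 and Upf3a stay at 0.47 or above on the left under every setting drawn, whereas Upf1 crosses 0 with the GC content correction (0.05).

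Over the 8 libraries, log2 CPM of Upf3a and Smg5 varied together (r = 0.98), as did that of Smg5 and Smg6 (r = 0.94) and of Smg6 and Smg8 (r = 0.94). Upf1 ran opposite to Upf3a (r = -0.59), and Smg1 to Smg9 (r = -0.74). These correlations are descriptions over libraries that fall into 3 groups, and points share library and hairpin. Outside the list, the genes whose pattern was most like that of Smg5 were Nol6 (r = 0.997), Nploc4 (r = 0.995) and Mettl13 (r = 0.993), over the same 8 libraries.

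Split by what is known of their mRNAs, the 6 factors that are decay substrates gave 3 higher calls and 1 lower call with shRNA2, with a median log2 fold change of 0.16, beside 27.2% of all tested genes higher and 28.7% lower. The other 3, Upf3a, Smg8 and Smg9, gave 1 higher call and a median of 0.13. With shRNA1 the medians were -0.06 and -0.04, with 0 calls in either set, beside 30.9% of all tested genes called. Between the hairpins, 3 of the 6 and 2 of the other 3 were higher with shRNA2, beside 16.9% of all tested genes, and both medians were 0.17. Among features linked to decay in the gene models, an annotated transcript of the nonsense-mediated decay class was present for Smg1, Smg5 and Smg6 (1 each), and 27.0% of 14343 tested genes with a protein-coding model have one. Retained-intron transcripts numbered 5 for Smg1, 5 for Smg5, 4 for Smg9, 2 for Upf3a and 1 for Smg6. An upstream ATG stood in the modelled 5′ leader of Upf2, Smg1, Smg5 and Smg9, beside 49.2% of tested genes. The modelled 3′ UTR was longest in Smg1 (4233 bases) and shortest in Smg8 (221 bases), with a median of 900 bases over tested genes, and Upf1 alone among the members had an exon after that of its stop codon.

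The gene models of the members lie on GRCm38 at chr8:70331525-70353278 (Upf1, minus strand), chr2:5951469-6056703 (Upf2, plus), chr8:13785615-13799193 (Upf3a, plus), chrX:37091678-37110322 (Upf3b, minus), chr7:118131308-118243670 (Smg1, minus), chr3:88336260-88362338 (Smg5, plus), chr11:74925823-75164448 (Smg6, plus), chr11:87077732-87086774 (Smg8, minus) and chr7:24399619-24422778 (Smg9, plus). Counts covered all their exons. Exons of Upf1 overlap Cers1 and Gdf1 over 1.5% and 1.4% of its length, and those of Smg6 overlap Srr and Gm12333 over 1.5% and 1.4%, on the opposite strand in each case. Those neighbours held at most 167 counts in a library, against 1893 or more for Smg6 and 6927 or more for Upf1. GC content of the transcripts ran from 42.7% (Upf3b), 43.5% (Upf2) and 44.9% (Smg1) to 56.5% (Smg5), 57.9% (Upf1) and 60.3% (Smg9), with a median of 49.8% over tested genes. The GC content correction lowered the shRNA2 values of Upf3b, Upf2 and Smg1 and raised those of Smg5, Upf1 and Smg9.

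Because Upf3a and Smg5 varied together, the promoters of the members were searched for short motifs on both strands, from 250 bases before to 50 bases after the RefSeq transcript start (GRCm38.p6, 9 of 9 members matched). TCGCGA, a palindrome, was found in 4 members (Upf1, Upf3a, Upf3b and Smg5) in 2.5% of the 32851 promoters of the table and in 5.4% of the 11941 tested genes with a promoter entry. It was picked by eye after the members' calls were known, so no test is given. The other motifs searched were CCAAT (4 members, 37.41% of promoters and 43.0% of tested genes), GGGCGG (7 members, 35.66% and 66.2%), CACGTG (0 members, 7.15% and 11.4%) and CTCGCGA, a longer form that contains TCGCGA (the same 4 members, 1.93% and 4.2%). The 4 promoters are shown from 250 bases before to 30 bases after the start, 5′ to 3′ on the gene's strand, because they belong to the members with the motif. Capitals mark TCGCGA.
Upf1, chr8:70353250-70353529, minus strand: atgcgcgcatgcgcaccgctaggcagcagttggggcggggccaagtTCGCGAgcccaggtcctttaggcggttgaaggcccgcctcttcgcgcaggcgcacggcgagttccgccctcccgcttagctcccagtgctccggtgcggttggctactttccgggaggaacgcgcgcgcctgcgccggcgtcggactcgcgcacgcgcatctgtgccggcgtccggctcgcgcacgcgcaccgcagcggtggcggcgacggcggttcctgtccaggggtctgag
Upf3a, chr8:13785365-13785644, plus strand: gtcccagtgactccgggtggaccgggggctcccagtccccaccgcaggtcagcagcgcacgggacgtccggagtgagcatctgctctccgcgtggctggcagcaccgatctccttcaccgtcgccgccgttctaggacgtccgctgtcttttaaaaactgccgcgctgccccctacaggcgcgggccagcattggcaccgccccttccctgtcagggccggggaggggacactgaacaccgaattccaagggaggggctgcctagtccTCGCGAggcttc
Upf3b, chrX:37110293-37110572, minus strand: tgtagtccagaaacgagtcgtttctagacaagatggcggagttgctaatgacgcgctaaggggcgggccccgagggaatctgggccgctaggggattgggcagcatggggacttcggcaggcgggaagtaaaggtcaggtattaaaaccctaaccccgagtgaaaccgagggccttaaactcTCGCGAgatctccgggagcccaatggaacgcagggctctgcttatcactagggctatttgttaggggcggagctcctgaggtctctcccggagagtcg
Smg5, chr3:88336010-88336289, plus strand: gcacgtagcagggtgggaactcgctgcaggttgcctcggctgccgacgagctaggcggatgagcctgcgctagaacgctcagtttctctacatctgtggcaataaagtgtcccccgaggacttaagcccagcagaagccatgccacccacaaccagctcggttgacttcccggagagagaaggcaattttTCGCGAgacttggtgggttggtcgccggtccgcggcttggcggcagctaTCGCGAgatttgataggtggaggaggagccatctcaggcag

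In Smg5 the hexamer begins 60 and 11 bases before the start, in Upf3b 68 bases before it, in Upf1 204 bases before it and in Upf3a 18 bases after it. Of these 4 members, Smg5, Upf3a and Upf3b were called higher with shRNA2, Upf3b in only 11 of 16 alternative fits. Upf1 was called lower in the reported fit but in only 7 of 16 alternative fits. Over the 11941 tested genes with a promoter entry, 27.7% were higher and 30.8% lower with shRNA2. Of the 640 with TCGCGA, 38.8% were higher and 24.7% lower. The shares with shRNA2 were 27.2% and 32.0% for CCAAT, 25.9% and 33.0% for GGGCGG, 29.6% and 29.5% for CACGTG, and 42.1% and 21.7% for CTCGCGA, which is not independent of TCGCGA. With shRNA1 16.1% of genes with TCGCGA were higher and 17.3% lower, beside 14.2% and 18.5% of all with an entry. A match is a description of these letters in this window and not a binding site.

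The rest of the pathway was read from lists of genes beside the members. Their counts stand against 27.2% of all tested genes called higher and 28.7% lower with shRNA2 (55.9% in all), and 13.8% higher and 17.1% lower with shRNA1 (30.9% in all). Of 8 other decay factors, 3 rose and 2 fell with shRNA2 (median log2 fold change 0.05), and 1 rose and 3 fell with shRNA1 (median -0.05). Stau2, which directs a related decay route, was at 0.42 with shRNA2 (edgeR adjusted p = 0.0308). Its shRNA2 libraries (6.72 to 8.67 CPM) overlapped nt-shRNA (5.16 to 6.82 CPM). The helicase Dhx34, which helps activate Upf1, was at -0.85 (edgeR adjusted p = 8.5e-07). For single genes of these lists only the reported fit is given.

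All 6 genes of the exon junction complex were called with shRNA2, beside 55.9% of all tested genes, 5 higher and 1 lower, with a median of 0.33. Magohb, a subunit of the core, rose by 0.68 (edgeR adjusted p = 1.7e-05) and the anchoring helicase Eif4a3 by 0.38 (edgeR adjusted p = 9.9e-05), while the peripheral protein Rnps1 fell by 0.32 (log2 fold change -0.32, edgeR adjusted p = 1.4e-04). With shRNA1, 1 rose and 1 fell, and the median was 0.09. Of 5 translation termination genes, 2 rose and 1 fell with shRNA2: the release factor Etf1 was at 0.23 (edgeR adjusted p = 0.00564) and the poly(A)-binding protein Pabpc1 at -0.31 (edgeR adjusted p = 3.4e-04). With shRNA1, 0 rose and 1 fell, with a median of -0.04.

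Among 19 mRNA degradation enzymes, 8 rose and 5 fell with shRNA2 (median 0.08, beside 0.00 over all genes), from the deadenylase Cnot6 at 0.60 (edgeR adjusted p = 2.2e-06) to the decapping cofactor Dcp1b at -0.76 (edgeR adjusted p = 7.3e-05). With shRNA1, 2 rose and 1 fell. Of 20 transcripts known to be sensitive to decay, 8 rose and 7 fell with shRNA2 (median -0.08), and 4 rose and 9 fell with shRNA1 (median -0.23). The splicing factor Srsf3, which has a decay-inducing exon, was at 0.75 with shRNA2 (edgeR adjusted p = 1.2e-07), and the stress-response factor Ddit3 was at -1.78 (edgeR adjusted p = 9.6e-08). The list therefore held calls in both directions under each hairpin. Between the hairpins, 10 of the 20 were higher with shRNA2 and 1 lower (median 0.17), beside 16.9% and 18.7% of all tested genes. In that comparison the other decay factors gave 2 higher and 1 lower, and the exon junction complex 5 and 1. Translation termination genes gave 0 and 0, and the degradation enzymes 6 and 2.

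**Figure D4:**
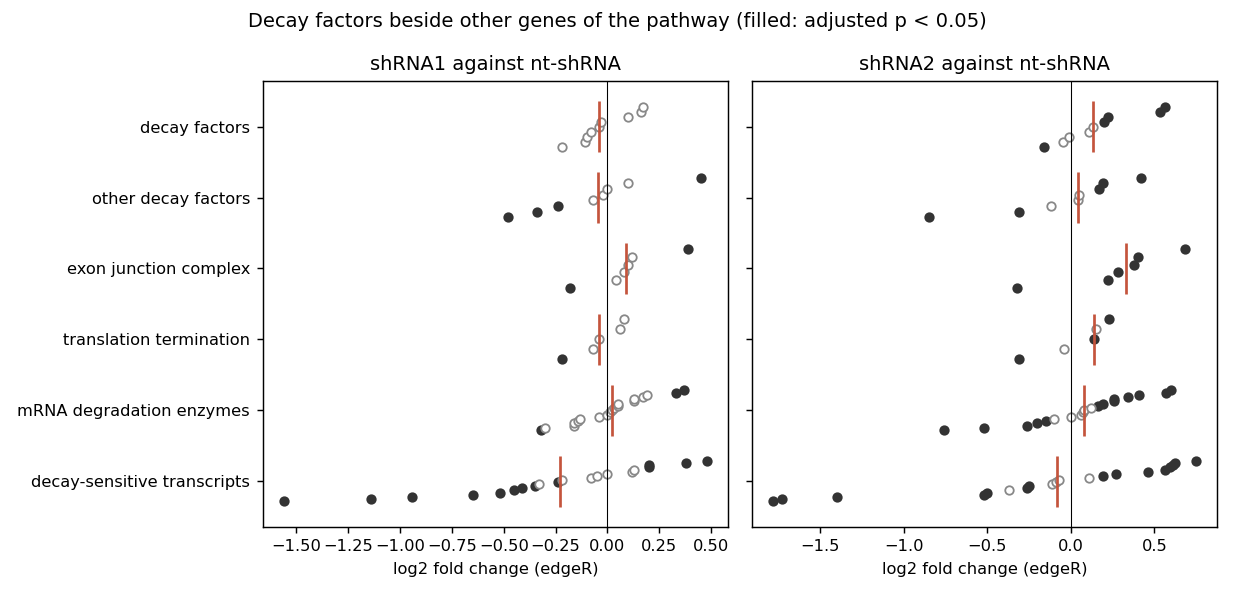
Log2 fold changes (edgeR) of the decay factors and of 5 lists of pathway genes with shRNA1 (left) and shRNA2 (right) against nt-shRNA, 1 point per gene, filled where adjusted p was under 0.05, with the list median as a vertical red line; the horizontal axes differ between panels. The median of the decay factors moves from -0.04 to 0.13, and that of the exon junction complex from 0.09 to 0.33.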

How the data were processed

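Poly(A)-selected RNA from 8 R1 mESC samples was sequenced. Per the labels and the file header, the authors aligned reads to mm10 (GRCm38) with STAR, end to end, and deposited raw read counts per gene from featureCounts 1.6.2. Whether strand or multi-mapping reads were used is not given in the sources used here. The labels call replicates biological. Names were matched by Ensembl ID to GENCODE M21 (55144 of 55385).

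Counts were tested with edgeR 4.0.16 in R 4.3.3 (TMM, filterByExpr with minimum count 10, quasi-likelihood, 1 fit over 8 libraries with group as the only term). P-values are two-sided and Benjamini-Hochberg adjusted over 17445 genes, with a threshold of 0.05. Intervals are 95%. DESeq2 1.42.0 was an alternative, with other normalizations, filters, sample sets, a replicate block and each library left out. On simulated counts (shRNA2 against nt-shRNA, 17058 genes, 2-fold changes) the script recovered 166 of the 195 changed genes that passed its filter (85.1%; 200 were changed), with 9 false calls. Of changed genes with a mean of 100 counts or more, 140 of 140 were recovered, a subset set after the 85.1% was seen. The members' changes were smaller, at most 1.48-fold (Smg5 with shRNA2). Recovery of changes of that size was not simulated.

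The members and lists were chosen with earlier results of these data known. The GC content correction (a spline with 4 degrees of freedom) and the promoter motifs were chosen after seeing the data, and TPM was limited to the levels, order and ratios of genes, and not used for a gene's difference between groups, after its sums were seen. All 9 members are named. From each of the 5 pathway lists the highest and lowest genes called with shRNA2 are named, with Eif4a3 added, and the 3 genes most like Smg5. One further gene that the rule names is not reported here. Libraries of a group differed by more than sampling noise (chi-square per gene 3.12 to 12), so none was counted as a duplicate. Promoters are from RefSeq.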

Additional observations from a re-analysis of the deposited data

How the results depend on the processing

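Smg5 and Upf3a kept direction and call with shRNA2, against nt-shRNA and against shRNA1, in all 16 alternative fits, as did Upf3b and Smg6 against shRNA1. With library size alone in place of TMM, the median of all genes with shRNA1 moved from -0.01 to 0.11 and the calls went from 2407 higher and 2981 lower to 4101 and 1713, so that 70.5% of calls were higher in place of 44.7%. That setting called 3 members higher with shRNA1 and turned Upf1 to 0.04, Upf2 to 0.01, Upf3b to 0.01, Smg6 to 0.08 and Smg8 to 0.07. With shRNA2 it turned Upf2 to 0.08 and Smg9 to 0.03. Requiring 10 counts in every library, fitting only the groups compared, the replicate block and the GC content correction each called 1 member higher with shRNA1. All genes called higher in these fits numbered 2455, 2770, 2694 and 2542, in that order. With the GC content correction 2 members were called lower with shRNA1 (Upf2 and Upf3b), beside 3343 of all genes. The GC content correction also turned Upf1 to 0.07 and Smg6 to 0.01 with shRNA1, and Upf1 to 0.05, Smg1 to -0.01 and Smg9 to 0.17 with shRNA2. Requiring 10 counts turned Upf2 to 0.02 with shRNA2. The lower call with shRNA2 went to 0 members under DESeq2, DESeq2 size factors, library size alone and the filter of 10 counts. All genes called lower there numbered 4517, 4974, 4077 and 4420, in that order, against 5010. With the GC content correction the lower call stayed at 1 member, beside 5249 of all genes. That member was Upf2 (-0.16, edgeR adjusted p = 0.0237) and not Upf1. Members called higher with shRNA2 numbered 6 with library size alone and 3 with no filter or the GC content correction, against 4. All genes called higher with shRNA2 numbered 5850, 4625 and 4827 in these settings, in that order, against 4748. Between the hairpins, 4 to 6 members were called higher over all settings, against 5. The 6 came with the GC content correction, which added Smg9 and called 3333 of all genes higher, against 2941. The cause of these moves was not tested.

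With 1 library left out, all genes called with shRNA1 ran from 1248 to 2649 higher and from 1700 to 3254 lower, the low ends without nt-shRNA replicate 1, with 1531 higher without nt-shRNA replicate 2. Members called ran from 0 to 1 higher and 0 lower with shRNA1, and from 2 to 4 higher and 0 to 1 lower with shRNA2, the 2 being without nt-shRNA replicate 2. With shRNA2, Upf2 turned to 0.01, 0.00 and 0.06 without shRNA2 replicate 2, shRNA2 replicate 3 and nt-shRNA replicate 1 (range over all left-out fits -0.09 to 0.06). Smg9 turned to 0.02, 0.01 and 0.02 without shRNA2 replicate 1, shRNA2 replicate 3 and nt-shRNA replicate 1 (range -0.19 to 0.02). Against shRNA1, Smg1 turned to 0.02 without shRNA2 replicate 2 (range -0.10 to 0.02). The median member level ran from 44.2 to 46.7 TPM, around 45.7.

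In its qPCR, the study compared each hairpin replicate with its corresponding control replicate. Same-numbered RNA-Seq libraries did not deviate together (r from -0.03 to 0.07), so the replicate numbers were not taken to pair the samples. The replicate block called 2694 genes higher and 3324 lower with shRNA1, against 2407 and 2981 in the reported fit. With shRNA2 it called 4898 and 5136, against 4748 and 5010. Between the hairpins it called 3116 and 3402, against 2941 and 3263. Whether the libraries are paired is not settled by these values. With the block Upf3a was at 0.19 with shRNA1 (edgeR, adjusted p = 0.0495). With shRNA2 it put Upf1 at -0.19 (edgeR, adjusted p = 0.0163) and turned Upf2 to 0.01. With 2 nt-shRNA libraries the spread of the control rests on few samples.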
